A study of Mus musculus with 6 samples.

Results

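The serine/threonine kinase gene Uhmk1 and 4 genes whose protein products the kinase is known to phosphorylate, Sf1, Cdkn1b, Stmn1 and Ptbp2, were followed in RNA sequencing data from embryonic mouse cortex. These 5 genes were taken by symbol from the 17348 genes listed, and all 5 were among the 13340 genes that passed the filter on low counts. The study selected Uhmk1 for follow-up partly on these same libraries, along with other RNA sequencing comparisons and the RNA bound by Ybx1. Its difference between genotypes is therefore given as a description without a test. The other 4 were selected for what the kinase does to their proteins, and their transcript levels were tested.

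RNA from the cortex of mouse embryos at E13.5 was compared between wild type (WT) embryos and littermates in which Ybx1 was conditionally deleted (cKO), with 3 libraries of each. The comparison asks which transcripts depend on Ybx1, an RNA-binding protein of the Y-box family. The cKO embryos were Ybx1 fl/fl and carried Nestin-Cre, a transgene whose recombinase is active in neural progenitors and is inherited by their progeny, and cells outside that lineage are not its target. The libraries labelled WT came from littermates, which the methods call wild type and which the study elsewhere defines as Ybx1 fl/fl without Cre. The libraries are described as biological replicates, and whether embryos were pooled for a library is not given in the sources used here, so the p-values measure only the spread between these samples.

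Library totals were close to each other, from 15907491 (cKO replicate 1) to 16282929 (WT replicate 2) estimated counts. The targeted gene, Ybx1, was at 1021, 528 and 1220 CPM (counts relative to the TMM-scaled library total) in WT, with libraries given here and throughout in the order of replicates 1, 2 and 3. The cKO replicates held 83.1, 117 and 147 CPM. The groups did not overlap, and the library labelled WT replicate 2 stood apart from the other WT libraries with the lowest Ybx1 level. The log2 fold change was -3.00 (SE 0.33), with an adjusted p of 0.128 (quasi-likelihood test of edgeR, p-values adjusted after Benjamini and Hochberg over every gene tested). Adjusted p-values under 0.05 were found for 0% of the genes tested in edgeR, for 4 genes in DESeq2 and for 0 in limma-voom. Markers of dorsal telencephalon summed to 1448 to 1934 CPM and those of cortical neurons to 4785 to 6040 CPM over the 6 libraries, with every marker above 0 in each library. The library of cKO replicate 3 stood apart, with 234 CPM of epidermal and 549 CPM of mesenchymal and meningeal markers, where no other library exceeded 10.3 and 15.7 CPM. Fold changes of the members are therefore also given without cKO replicate 3 or WT replicate 2.

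Uhmk1 encodes a nuclear kinase, KIS, which joins a kinase domain to a U2AF homology motif (UHM), the module by which splicing factors hold one another at the branch site and polypyrimidine tract of an intron. The kinase acts on serines that are followed by proline. In neurons it also travels with RNA granules and bears on local translation, and among its substrates are a branch-point binding protein, a cell cycle inhibitor, a microtubule regulator and a neuronal splicing repressor.

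The coding stretches around the best known target serines are shown for Cdkn1b and Sf1, because they tie the kinase to these members in sequence, while the libraries measure only transcript levels. Both were read from GENCODE M21 transcripts on GRCm38 and run 5′ to 3′ on the coding strand, with the codon of a serine and of the proline after it in capitals. The Cdkn1b stretch holds codons 1 to 15 within a single exon at chr6:134920920-134920964 on the plus strand, and its capitals start at codon 10, the serine by which the kinase controls export of p27 from the nucleus. The Sf1 stretch holds codons 75 to 88 on the plus strand and crosses an exon junction, and its capitals cover codons 80 to 83 at chr19:6371268-6371279, a tandem pair of target serines near the part of the protein that binds U2AF2.
Cdkn1b codons 1 to 15: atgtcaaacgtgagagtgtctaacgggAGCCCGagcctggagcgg
Sf1 codons 75 to 88: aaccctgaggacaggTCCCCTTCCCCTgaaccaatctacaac

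Serine codons followed by a proline codon numbered 3 of 639 codons in Sf1, 2 of 197 in Cdkn1b, 2 of 149 in Stmn1 and 4 of 532 in Ptbp2, counted in 1 annotated transcript per gene. The kinase's own reading frame of 419 codons held 3 such pairs. These counts describe the letters of the transcripts, and phosphorylation was not measured in these libraries.

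Uhmk1 lies on the minus strand of chromosome 1 (GRCm38, chr1:170193422-170215897). Its levels were 102, 104 and 110 CPM in WT, from 1623 to 1762 estimated counts. In the cKO they were 76.5, 84.2 and 83.7 CPM, from 1226 to 1387 counts. Every cKO library was below every WT library, and the WT libraries lay within a narrow range.

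The mean level of Uhmk1 was 105 CPM ± 4.21 (SD, n = 3) in WT and 81.5 CPM ± 4.31 (SD, n = 3) in cKO, which is 77.3% of the WT mean. The log2 fold change was -0.37 (SE 0.07). It was -0.38 without WT replicate 2 and -0.39 without cKO replicate 3. Levels per transcript length gave the same order of groups, with 29.7, 27.8 and 30.3 TPM (length-scaled shares of all transcripts) in the 3 WT libraries and 22.1, 22.7 and 23.5 TPM in the 3 cKO libraries. Of all genes tested, 4.83% had every cKO library below every WT library in CPM, and nothing is read from this share for Uhmk1, whose choice used the same contrast.

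**Figure D1:**
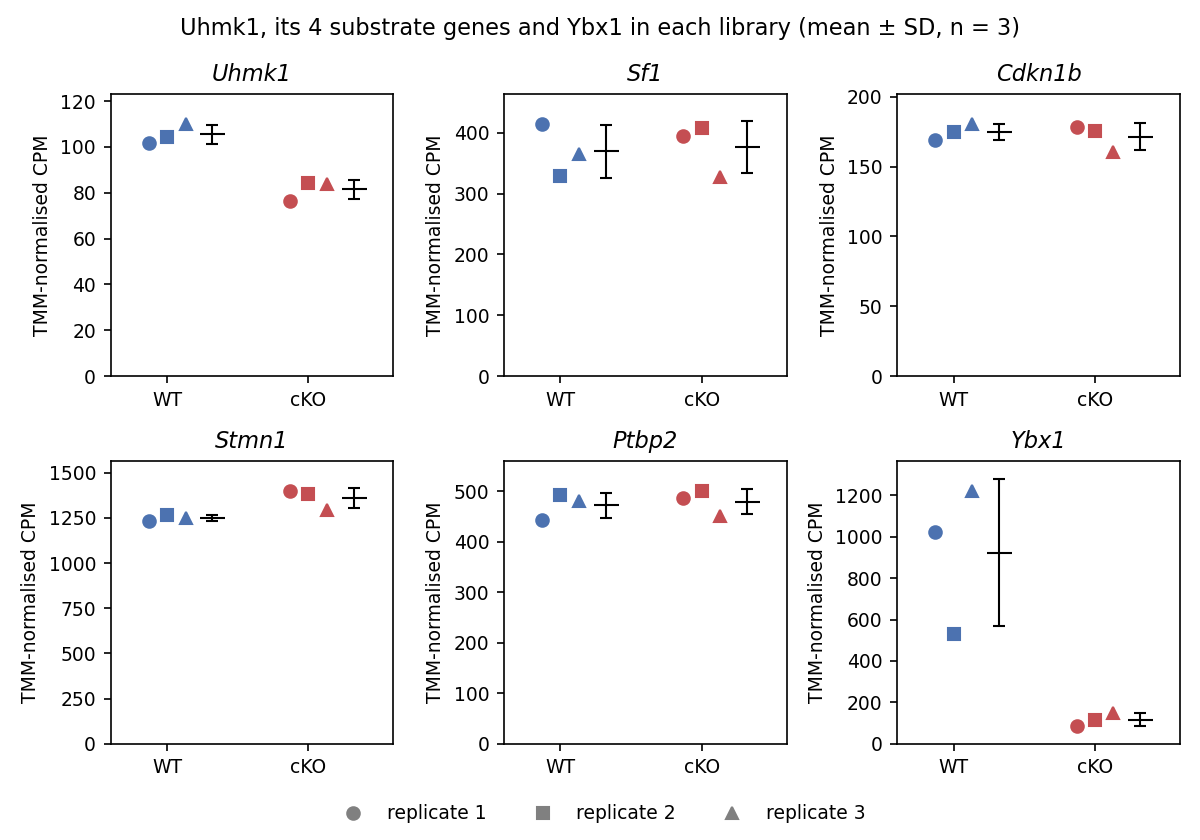
TMM-normalised CPM (y axis, from 0) of Uhmk1, its 4 substrate genes and Ybx1 in WT (blue) and cKO (red) libraries, with replicate numbers as symbols and the mean ± SD in black. The cKO libraries lie below the WT libraries for Uhmk1 (76.5 to 84.2 against 102 to 110 CPM) and above them for Stmn1 (1295 to 1397 against 1233 to 1264 CPM), and the genotypes overlap for Sf1, Cdkn1b and Ptbp2.

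Of 54 cell type markers tested, 0 passed an adjusted p under 0.05 in edgeR or limma-voom, and 1 (Sst, named after its values were seen) passed in DESeq2. At an unadjusted p under 0.05 in edgeR, 9 were higher and 0 lower in cKO, 5 of interneurons and 4 of mesenchyme, the latter counted mainly in cKO replicate 3. The shares over all genes tested were 1.75% higher and 1.81% lower at that threshold. Interneuron and ventral forebrain markers summed to 68.6 to 121 CPM in WT and 142 to 150 CPM in cKO, with a positive fold change for 7 of 7 markers and all of them above 0 in every library. Erythroid markers had a positive fold change for 8 of 8 genes, with overlapping sums of 641 to 879 CPM in WT and 690 to 1120 CPM in cKO. Fold changes were positive for 0 of 4 intermediate progenitor markers (992 to 1218 CPM in cKO and 1100 to 1310 CPM in WT), 1 of 8 cortical neuron markers (4785 to 6040 and 5020 to 5911 CPM) and 4 of 8 radial glia markers (1772 to 2629 and 1809 to 2486 CPM), all with overlapping sums. The part of these cells in the Uhmk1 difference was not tested, and in bulk tissue fewer cells of a type and less RNA per cell cannot be told apart. The annotation also places 4930500M09Rik antisense to Uhmk1. Reads in any sequence that the pair shares cannot be told apart without strand, which is not given in the sources used here. Here and for the other members, overlap was read from whole genes and not from exons.

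The 5 genes differed widely in abundance. Per transcript length, mean WT levels were 3358 TPM for Stmn1, 317 TPM for Ptbp2, 272 TPM for Sf1, 173 TPM for Cdkn1b and 29.3 TPM for Uhmk1. Of these neighbours, the WT ranges of Ptbp2 (314 to 320 TPM) and Sf1 (233 to 320 TPM) overlapped, and the other neighbours were apart. Stmn1 stood at percentile 99.9 of the genes tested by mean WT TPM and Uhmk1 at percentile 53.9, and the other substrate genes stood between percentiles 92.7 and 96.7. In cKO the order was the same, with means of 3651, 325, 277, 170 and 22.8 TPM.

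Sf1 encodes splicing factor 1, which binds the intron branch point and pairs with U2AF2 before the U2 particle is loaded (GRCm38, chr19:6363673-6378038). Its levels were 415, 328 and 366 CPM in WT and 394, 407 and 327 CPM in cKO. WT replicate 2 and cKO replicate 3 were the low libraries, and the genotypes overlapped across nearly their whole range. The means were 369 CPM ± 43.3 (SD, n = 3) in WT and 376 CPM ± 43.0 (SD, n = 3) in cKO.

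For Sf1 the log2 fold change was 0.03 (SE 0.12, 95% interval -0.24 to 0.29), with an adjusted p of 0.99995 in edgeR. In percent of the WT level the interval runs from -15.6% to 22.6%. Summed dorsal telencephalon markers were 1934, 1514 and 1688 CPM in WT and 1834, 1717 and 1448 CPM in cKO. Both they and Sf1 were highest in WT replicate 1 and lowest in cKO replicate 3, with WT replicate 2 next lowest. Summed intermediate progenitor markers ranked these libraries in the same way (1310, 992 and 1100 CPM). Cortical neuron markers were instead highest in cKO replicate 1 (6040 CPM) and radial glia markers in cKO replicate 2 (2629 CPM). The part of any of these cells in the spread of Sf1 was not tested. The fold change of Sf1 turned to -0.053 without WT replicate 2 and was 0.12 without cKO replicate 3. Gm14966 is annotated antisense to Sf1, which carries the same uncertainty about strand.

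Cdkn1b encodes p27, which holds cyclin-dependent kinases inactive and promotes cell cycle exit of cortical progenitors (GRCm38, chr6:134920401-134925525). The WT libraries were at 169, 175 and 181 CPM and the cKO libraries at 178, 175 and 160 CPM. The groups overlapped, and cKO replicate 3 was the lowest library. Means of 175 CPM ± 5.77 (SD, n = 3) and 171 CPM ± 9.73 (SD, n = 3) gave a log2 fold change of -0.03 (SE 0.07, 95% interval -0.19 to 0.13; edgeR adjusted p 0.99995). The value stayed at -0.03 without WT replicate 2 and turned to 0.014 without cKO replicate 3.

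Stmn1 encodes stathmin, which sequesters tubulin and destabilises microtubules in dividing cells and young neurons (GRCm38, chr4:134468320-134473843). Its levels were 1233, 1264 and 1252 CPM in WT and 1397, 1383 and 1295 CPM in cKO. All cKO libraries lay above all WT libraries in CPM, but not in TPM, where cKO replicate 3 (3481.73 TPM) fell just under WT replicate 1 (3483.08 TPM). Of all genes tested, 4.21% had every cKO library above every WT library in CPM. The means were 1249.58 CPM ± 15.4 (SD, n = 3) in WT and 1358 CPM ± 55.2 (SD, n = 3) in cKO, a difference of 8.70% that did not pass the test.

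The log2 fold change of Stmn1 was 0.12 (SE 0.08, 95% interval -0.05 to 0.30), with an unadjusted p of 0.151 and an adjusted p of 0.99995 in edgeR. It was 0.13 without WT replicate 2 and 0.15 without cKO replicate 3. The miRNA gene Gm23634 is annotated on the same strand within Stmn1, so reads shared with it are uncertain.

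Ptbp2 encodes the neuronal polypyrimidine tract binding protein, a splicing repressor that keeps adult exons skipped in young neurons (GRCm38, chr3:119718741-119784647). Its levels were 443, 493 and 480 CPM in WT and 486, 500 and 452 CPM in cKO. The genotypes overlapped, with WT replicate 1 and cKO replicate 3 lowest in their groups. The means were 472 CPM ± 25.6 (SD, n = 3) and 479 CPM ± 24.8 (SD, n = 3), a log2 fold change of 0.02 (SE 0.08, 95% interval -0.16 to 0.20; edgeR adjusted p 0.99995). It was 0.05 without WT replicate 2 and 0.06 without cKO replicate 3. Gm43300 and Gm42664 are annotated on the same strand within Ptbp2 and the processed pseudogene Gm42804 opposite to it, so reads shared with them are uncertain.

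None of the 4 substrate genes passed the test at an adjusted p under 0.05, and none had an unadjusted p under 0.05 in edgeR. Over all alternatives, DESeq2 included, the lowest adjusted p of any of them was 0.634, for Stmn1. The unadjusted values were 0.835 for Sf1, 0.673 for Cdkn1b, 0.151 for Stmn1 and 0.783 for Ptbp2. Among all genes tested, 1.75% were higher and 1.81% lower in cKO at an unadjusted p under 0.05, and 0 passed after adjustment, with a lowest adjusted p of 0.0953. The upper bounds of the 4 intervals lay between 9.50% and 22.7% above WT and the lower bounds between -15.6% and -3.70%.

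Within a library, the kinase transcript can be set against each substrate transcript. Uhmk1 TPM was 16.9%, 16.7% and 17.2% of Cdkn1b TPM in WT and 12.1%, 13.54% and 14.8% in cKO. Against Ptbp2 it was 9.47%, 8.68% and 9.53% in WT and 6.49%, 6.95% and 7.67% in cKO. The genotypes were apart for both of these ratios.

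Against Stmn1 the kinase was at 0.853%, 0.850% and 0.912% in WT and 0.570%, 0.632% and 0.675% in cKO, also with no overlap. Against Sf1 the values were 9.30%, 11.9% and 11.5% in WT and 7.36%, 7.85% and 9.79% in cKO, where cKO replicate 3 exceeded WT replicate 1. Mean ratios in cKO were 71.7% (Stmn1), 76.2% (Ptbp2), 76.4% (Sf1) and 79.5% (Cdkn1b) of those in WT. These ratios carry the Uhmk1 difference on which the kinase was partly chosen, and they are descriptions without a test.

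**Figure D2:**
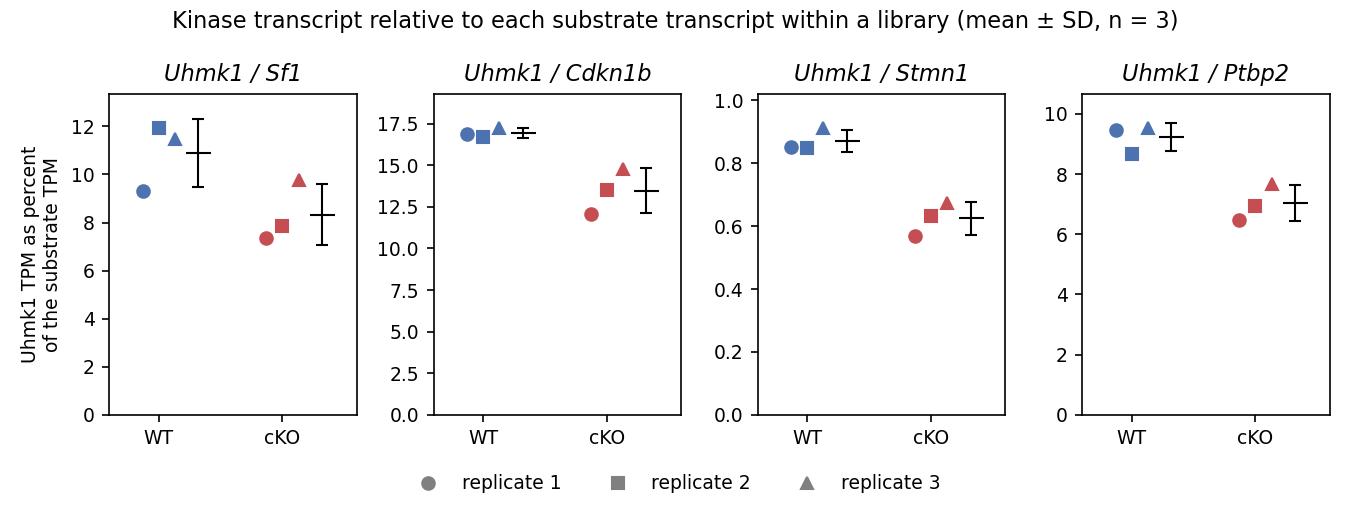
Uhmk1 TPM as a percent of the TPM of each substrate gene (y axis, from 0) in the 3 WT (blue) and 3 cKO (red) libraries, with replicate numbers as symbols and the mean ± SD in black. The genotypes are apart for Cdkn1b, Stmn1 and Ptbp2 and overlap for Sf1, where WT replicate 1 is at 9.30% and cKO replicate 3 at 9.79%.

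A length of transcript is implied by a gene's estimated count and FPKM (fragments scaled for transcript length and library total). It was compared as a measure that the choice of members did not use. It does not measure isoform use alone, because a shift shared by the genes of a library moves it too. For Uhmk1 it was 7569 bases ± 47.0 (SD, n = 3) in WT and 7548 bases ± 20.7 (SD, n = 3) in cKO (exact two-sided permutation test, p = 0.6, where 0.1 is the smallest p that 3 against 3 libraries allow). The 3 annotated transcripts of Uhmk1 measured 7676, 7775 and 7864 bases. Both implied means lay below all 3, so implied and annotated lengths are not on the same scale and no isoform is read from them. For Sf1 the lengths were 2863 and 2869.56 bases (exact permutation p = 0.4) and for Ptbp2 3121 and 3117 bases (exact permutation p = 0.6).

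The implied lengths of Cdkn1b and Stmn1 were each longer in every cKO library, by a few bases. They were 2127 against 2130 bases and 782 against 785 bases (exact permutation p = 0.1 for both, the smallest possible). Cdkn1b was at 2128.8, 2127.0 and 2124.4 bases in WT and 2131.0, 2129.3 and 2130.4 bases in cKO. Stmn1 was at 783.8, 781.9 and 779.3 bases in WT and 786.1, 784.5 and 785.6 bases in cKO. Both genes thus shifted together from library to library, and their p-values are not separate results about either transcript. Of 6896 genes with an FPKM of at least 10 in every library, 41.3% had implied lengths that did not overlap between genotypes in either direction, and their median ratio of cKO to WT length was 1.00159. A lack of overlap in this measure was thus common among all genes.

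Around the members, 52 genes of 5 pathway lists were counted whatever their values, and 51 of them were in the table and passed the filter. They include Ccnd2, which was selected partly on these libraries, so its place in the counts is no independent evidence. Of these 51 genes, 0 were higher and 0 lower in cKO at an adjusted p under 0.05 in edgeR, and also 0 in each direction at an unadjusted p under 0.05. DESeq2 and limma-voom likewise called 0 of them at an adjusted p under 0.05. Positive fold changes were found for 33 and negative ones for 18, with a median log2 fold change of 0.02 and a range of -0.48 to 0.16. Over all genes tested the median was 0.002, with 6774 positive and 6566 negative values.

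The first list holds the UHM proteins and the branch site machinery, with which SF1 works. Of 10 genes tested, 9 had a positive and 1 a negative log2 fold change, with a median of 0.04. U2af2, whose product binds SF1, was at 372 CPM ± 6.98 (SD, n = 3) in WT and 380 CPM ± 26.6 (SD, n = 3) in cKO, a log2 fold change of 0.03 (SE 0.08). Its partner at the 3′ splice site, U2af1, was at 0.04 (SE 0.11), and the UHM proteins Puf60 and Rbm39 were at 0.05 (SE 0.06) and 0.01 (SE 0.07). Sf3b1, the U2 component that grips the branch site, was at -0.04 (SE 0.07). Rbm17, named here after its values were seen, was the list's only gene with every cKO library above every WT library in CPM. The same was found for 4.21% of all genes tested. Rbm17 was at 101 CPM ± 5.64 (SD, n = 3) in WT and 111 CPM ± 5.75 (SD, n = 3) in cKO. It did not pass the test (log2 fold change 0.14, unadjusted p 0.0854, adjusted p 0.99995 in edgeR).

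The list of p27 partners and turnover held 21 genes, 12 with a positive and 9 with a negative fold change and a median of 0.002. Ccnd2, a D-type cyclin of cortical progenitors, had the most negative value, with 1386 CPM ± 337 (SD, n = 3) in WT and 994 CPM ± 235 (SD, n = 3) in cKO, overlapping groups and a log2 fold change of -0.48 (SE 0.22). Like Uhmk1, it was selected partly on these libraries for follow-up, so this is a description without a test. Cdkn1c, the p57 inhibitor related to p27, was at 114 CPM ± 10.5 (SD, n = 3) in WT and 99.3 CPM ± 10.5 (SD, n = 3) in cKO. Every cKO library was below every WT library in CPM but not in TPM (log2 fold change -0.20, unadjusted p 0.0765, adjusted p 0.99995 in edgeR). In CPM, 4.83% of all genes tested had every cKO library below every WT library.

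The p27 target Cdk2 was at 0.00 (SE 0.09) and Ccne1, its cyclin, at -0.04 (SE 0.15) on the log2 fold change scale. Skp2, which marks p27 for degradation, was at -0.05 (SE 0.14), its cofactor Cks1b at 0.13 (SE 0.18) and Xpo1, the exporter that carries p27 out of the nucleus, at -0.05 (SE 0.08). Cdkn1a, which encodes the p21 inhibitor, was low, at 6.70 CPM ± 1.54 (SD, n = 3) in WT and 6.60 CPM ± 0.814 (SD, n = 3) in cKO. The 95% intervals of all 6 genes included 0.

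In the stathmin list of 11 genes, 9 fold changes were positive and 2 negative, with a median of 0.03. The neuronal relatives Stmn2, Stmn3 and Stmn4 had log2 fold changes of 0.06 (SE 0.10), 0.05 (SE 0.09) and 0.12 (SE 0.08). Stmn4 was the least abundant of them, at 36.3 CPM ± 0.471 (SD, n = 3) in WT and 39.3 CPM ± 2.64 (SD, n = 3) in cKO. Cdk5, a proline-directed kinase of neurons, was at 0.13 (SE 0.08).

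In the list of PTB proteins and co-regulators, 2 of 7 fold changes were positive and 5 negative, with a median of -0.01. Ptbp1, the form that progenitors express before Ptbp2 takes over, was at 424 CPM ± 19.8 (SD, n = 3) in WT and 419.7 CPM ± 52.5 (SD, n = 3) in cKO (log2 fold change -0.01, SE 0.10). Ptbp3 was at 0.05 (SE 0.17) and the PTB partners Raver1 and Matr3 at -0.06 (SE 0.11) and -0.09 (SE 0.09), with Hnrnpm at -0.005 (SE 0.09). Of the last list, Pam, which makes amidated peptides and encodes a binding partner of the kinase, was at 0.02 (SE 0.12), and Pimreg, a mitotic gene also reported as a substrate, at -0.04 (SE 0.18).

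**Figure D3:**
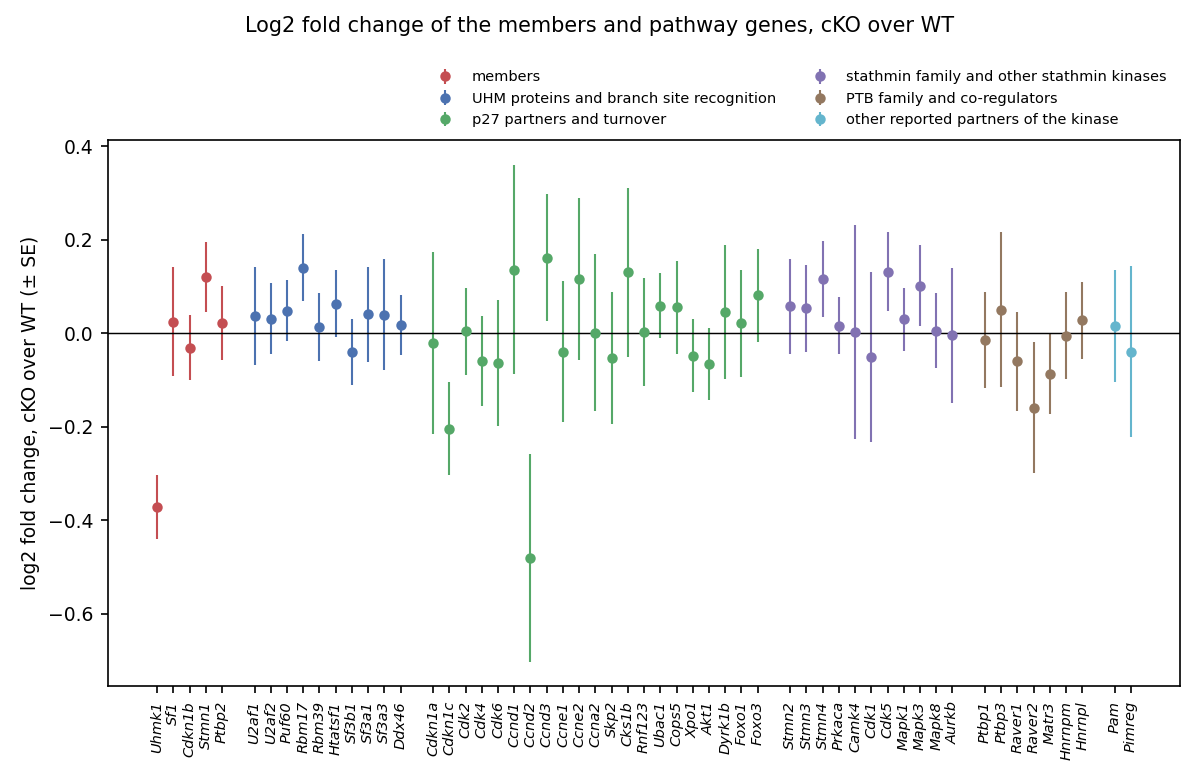
Log2 fold change of cKO over WT (y axis; bars, SE of the edgeR fit on 3 against 3 libraries) for the 5 members and the 51 pathway genes, coloured by list. Uhmk1 (-0.37) and Ccnd2 (-0.48) are the lowest values, and the 4 substrate genes lie between -0.03 and 0.12.

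Genes whose levels over the 6 libraries were most like those of Uhmk1 were sought among 9683 genes with a mean of at least 10 CPM, by Pearson's r of log2 CPM. The 5 nearest were Def8 (r = 0.995), Mdm1 (r = 0.992), Nop53 (r = 0.990), Nkiras2 (r = 0.986) and Myh10 (r = 0.985). Each had every cKO library below every WT library. This comes with the choice of genes for likeness to Uhmk1 and is no separate result about them. Myh10, a non-muscle myosin heavy chain gene, was at 618 CPM ± 6.68 (SD, n = 3) in WT and 533 CPM ± 25.2 (SD, n = 3) in cKO. An r over 0.9 was reached by 98 genes, or 1.01%, and the 6 points share libraries and genotype, so r is a description with no test.

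The fold change of Uhmk1 was between -0.40 and -0.32 in the alternative fits. Uhmk1 was chosen partly on this contrast, so the range is a description. The fold change of Stmn1 was between 0.11 and 0.16 and did not pass the test in any fit. For both genes the genotypes did not overlap in CPM, so leaving out libraries could not turn the sign. Sf1, Cdkn1b and Ptbp2 each crossed 0 when single libraries were left out.

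**Figure D4:**
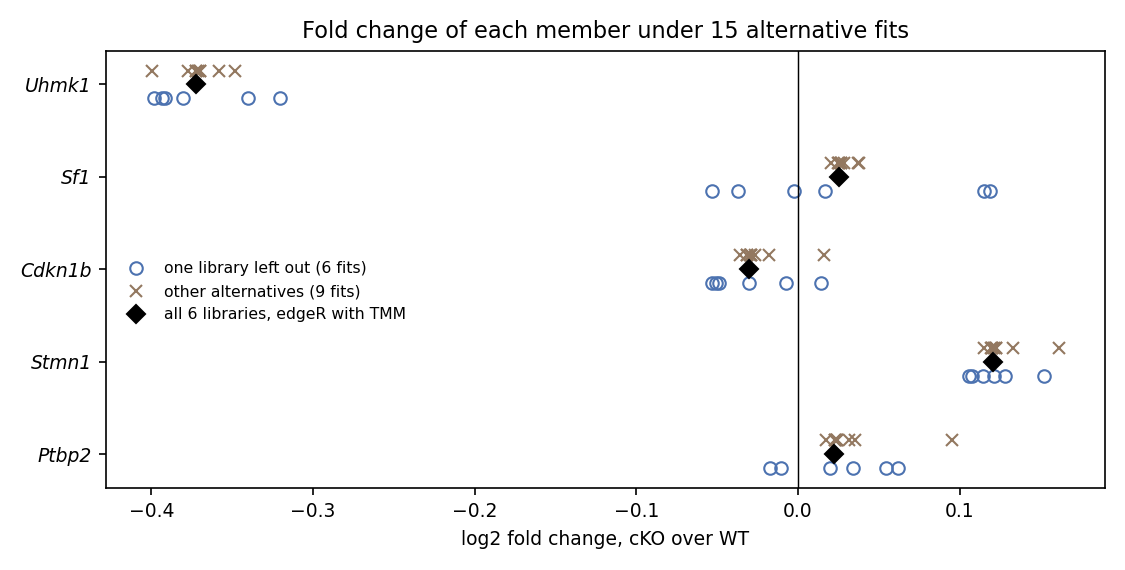
Log2 fold change of cKO over WT (x axis) for the 5 members with all 6 libraries (black diamonds), with 1 library left out in turn (circles, 6 fits) and in the other alternatives (crosses, 9 fits). Uhmk1 lies between -0.40 and -0.32 and Stmn1 between 0.11 and 0.16, while Sf1, Cdkn1b and Ptbp2 fall on both sides of 0. The genotypes of Uhmk1 and Stmn1 did not overlap in CPM, so leaving out libraries could not turn their signs.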

How the data were processed

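Total RNA of E13.5 mouse cortex was made into mRNA libraries, 3 per genotype. The submitters' processing notes name HISAT2 2.2.1, Bowtie2 2.4.5, RSEM 1.3.1 and the GRCm38 (mm10) build; the gene annotation and the use of strand are not given in the sources used here. The authors deposited estimated counts without normalisation for depth (10.9% of the values were not whole, 0% of those of the 5 members). The authors also deposited TPM and FPKM values, which take transcript length and library depth into account. The 6 columns of group averages were not used. Coordinates came from RefSeq for GRCm38.p6.

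Counts were rounded, filtered with filterByExpr (minimum count 10, minimum total count 15; 13340 of 17348 genes left) and tested with genotype as the only term (edgeR 4.0.16, quasi-likelihood, two-sided, R 4.3.3). P-values were adjusted after Benjamini and Hochberg over all 13340 genes, with a threshold of 0.05. TMM factors were between 0.987 and 1.03, and a floor of 3 counts corresponds to 0.181 to 0.188 CPM, counting error only. The fit was run on simulated counts with known changes, drawn with the dispersions that it had estimated itself. Not every changed gene was recovered, and changes as small as those of the members were not simulated. The implied length was the count divided by FPKM and library total (SciPy 1.17.1 for exact tests).

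The members and lists were chosen with earlier results of these data known. Named were the 5 members, Ybx1, 24 genes of the lists whatever their values, any other listed gene with an adjusted p under 0.05, and the 5 genes most like Uhmk1, leaving out members and predicted genes. Rbm17, Sst and genes that overlap a member were named outside this rule. Rbm23 was listed but is not analysed here. No 2 libraries held equal counts in more than 1.66% of the genes tested. Sequencing was done in 3 batches whose libraries are not named, so within-batch values could not be given. The alternatives were other scaling factors (RLE, upper quartile), other filters (none, or a minimum of 10 counts per library), other tests (limma-voom with limma 3.58.1, DESeq2 1.42.0, and limma on log2(TPM + 1)), the replicate number as a block, each library left out, and both WT replicate 2 and cKO replicate 3 left out.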

Additional observations from a re-analysis of the deposited data

How the results depend on the processing

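In all 15 alternatives Uhmk1 stayed within 1 SD of its value (log2 fold change, leaving out 1 library, -0.40 to -0.32). Stmn1 stayed positive (0.11 to 0.15 leaving out 1 library), with a lowest adjusted p of 0.634. Neither sign could turn by leaving out libraries, because the genotypes of both genes did not overlap in CPM. Sf1 ranged from -0.053 to 0.12 and turned to -0.053 without WT replicate 2, -0.0027 without cKO replicate 1 and -0.037 without cKO replicate 2. Leaving out 1 library, Cdkn1b ranged from -0.053 to 0.014 and turned to 0.014 without cKO replicate 3. Cdkn1b was at 0.016 without both WT replicate 2 and cKO replicate 3. Leaving out 1 library, Ptbp2 ranged from -0.017 to 0.062 and turned to -0.017 (no WT replicate 1) and -0.010 (no cKO replicate 2). Ptbp2 was at 0.095 without both libraries. The cause was not tested.

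Same-numbered libraries did not deviate together in every case (correlations of 0.41, 0.31 and -0.02), and the numbers were not taken as pairs in the main fit. Different-numbered libraries were not compared, so these values do not settle whether the numbers are pairs. Summed radial glia markers were lowest in replicate 1 of both genotypes, at 1809 CPM in WT and 1772 CPM in cKO. With the replicate block the values were -0.37 for Uhmk1, 0.02 for Sf1, -0.03 for Cdkn1b, 0.12 for Stmn1 and 0.02 for Ptbp2.

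Ybx1 passed the threshold with the block (-2.95, adjusted p 0.0381), in DESeq2 (-3.00, adjusted p 5.46e-10), without WT replicate 2 (-3.28, adjusted p 0.0206) and without both libraries (-3.49, adjusted p 0.0188), and ranged from -3.28 to -2.75 without single libraries. Pathway genes called at an adjusted p under 0.05 stayed at 0 in each direction. At an unadjusted p under 0.05 there were 0 to 1 higher and 0 to 2 lower over the alternatives. Under the block, 1 was higher (Rbm17) and 2 lower (Cdkn1c, and Ccnd2, which was selected partly on these libraries). The shares over all genes tested are not given for these fits, so nothing is read from these counts. The implied length difference of Sf1 went from 7.01 to -1.48 bases without both libraries (2.05 to 11.6 without single ones), and that of Cdkn1b from 3.54 to 1.75 bases from TPM (2.36 to 4.59 without single ones). With all libraries and genotype as the only term in edgeR, even the Ybx1 difference did not pass the adjusted threshold (adjusted p 0.128).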
